A study of Mus musculus with 18 samples.

Results

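The cytosolic ribosomal proteins were followed in mouse eosinophils that had been cultured with apoptotic cells (ACs) and stimulated with E. coli, IFN-γ, IFN-γ with E. coli, or IL-4. The members were chosen by name: every protein-coding gene of the table whose symbol is Rpl or Rps followed by a number and, for some, one of the endings a, l, x or al, together with Rplp0, Rplp1, Rplp2 and Rpsa. This gave 81 of 54446 genes, of which 50 encode proteins of the large subunit (3 of them the P-stalk proteins) and 31 encode proteins of the small subunit. Pseudogenes with a symbol of the same form, 290 in number, were left out. The members lay on 19 chromosomes.

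RNA was sequenced by CEL-Seq2, which reads the 3′ end of polyadenylated transcripts, in 18 libraries with 3 per group. The cells were peritoneal eosinophils of NJ.1638 Il5Tg mice, which carry an IL-5 transgene and therefore hold very many eosinophils (strain C57BL/6 per the labels), so they had developed under a constant excess of IL-5. All 6 groups carried the same addition: apoptotic thymocytes, killed with dexamethasone, from wild-type mice aged 4 to 6 weeks, for 18 h at 5 ACs per eosinophil, after which the eosinophils were re-purified with anti-Siglec-F beads. The Type 1 experiment had ACs alone, E. coli with ACs, IFN-γ with ACs, and IFN-γ with E. coli and ACs (12 libraries). In that last group the paper describes IFN-γ followed by E. coli. Whether the timing of E. coli matched that in the group with E. coli alone is not stated there. The IL-4 experiment had its own ACs alone and IL-4 with ACs (6 libraries). The age and sex of the eosinophil donors and the doses of the stimuli were not given in the sources used here. The paper describes its experiments as having 3 biological replicates, and assigns each lane of its heat maps of ACs against unstimulated cells to a separate mouse. Whether replicates came from different mice was not given for all groups in the sources used here. The p-values therefore measure the spread between these samples, which may be technical.

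A ribosome is built of a small subunit, which reads the mRNA, and a large subunit, which joins amino acids, and each carries 1 copy of nearly every ribosomal protein on a scaffold of ribosomal RNA. Cells keep the mRNAs of these proteins in step with each other, because a protein made in excess over its partners is usually degraded. Many of these mRNAs are of the TOP class: they begin with a C followed by an unbroken run of C and T (a terminal oligopyrimidine tract), through which growth signals, mTORC1 and the RNA-binding protein LARP1 set how well they are translated and stored. Their level in RNA therefore need not follow their use by ribosomes, and only the RNA was measured here.

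The sequence around the start site was searched for the TOP tract. In the RefSeq table (GRCm38.p6), 61 members had a promoter entry, with 73 promoters in all. A run of at least 5 C or T letters that began with C within 5 bases of the annotated start was found in 41.1% of the members' promoters and in 18.3% of all 32851 promoters. With the search widened to 20 bases on either side, the shares were 76.7% and 49.4%. The letters TATAA within the 50 bases before the start were found in 5.48% of the members' promoters and in 4.93% of all promoters. Only the strand that reads like the mRNA was searched, and the runs were required to be unbroken. A run or its absence is a description of these letters in these windows. The following 30-base windows, from 15 bases before the start to 15 bases from it onwards, are shown for members whose values are described with the results (Rps27, Rpl10a, Rpl15, Rpl18, Rps24 and Rpl12), for the most abundant member (Rpl4), and for Rpl27a, which had the longest run found by this rule (20 letters, of which the window holds 19). Capitals mark the pyrimidine run.
Rps27, chr3:90213634-90213663, minus strand: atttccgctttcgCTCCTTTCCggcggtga
Rpl10a, chr17:28328456-28328485, plus strand: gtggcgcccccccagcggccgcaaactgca
Rpl27a, chr7:109519180-109519209, plus strand: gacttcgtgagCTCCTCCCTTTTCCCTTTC
Rpl15, chr14:18270972-18271001, minus strand: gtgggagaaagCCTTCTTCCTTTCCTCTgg
Rpl18, chr7:45718056-45718085, plus strand: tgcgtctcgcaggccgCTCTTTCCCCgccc
Rps24, chr14:24490663-24490692, plus strand: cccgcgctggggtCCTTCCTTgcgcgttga
Rpl12, chr2:32961697-32961726, plus strand: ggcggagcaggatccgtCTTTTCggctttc
Rpl4, chr9:64173372-64173401, plus strand: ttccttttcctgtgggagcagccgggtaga
In the window of Rps27 the run of 9 letters starts 2 bases before the annotated start. In those of Rpl10a and Rpl4 no run that meets the rule lies within 5 bases of the start, and a second RefSeq start of Rpl10a also had none.

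Depth ranged from 779421 to 7782072 reads on genes per library. The shallowest libraries were the third replicates of both groups of the IL-4 experiment, in which 1 read was worth over 5 normalized counts. All 9 eosinophil markers were detected in every group, with a summed normalized count of 10002 to 26577 per library, and the 14 thymocyte markers summed to 55.6 to 274 per library. The summed macrophage markers (11 genes) ranged over 13460 to 17356 with ACs alone, 5613 to 7292 with E. coli, 20322 to 29116 with IFN-γ and 6319 to 6875 with the combination, and over 18730 to 28276 and 14994 to 25242 in the ACs and IL-4 groups of the IL-4 experiment. The 6 B cell markers ranged over 902 to 1043 with ACs alone and over 97.6 to 317 in the stimulated groups of the Type 1 experiment. In bulk RNA, fewer cells of a type and less RNA per cell cannot be told apart, and the part of these other cells in the members' values was not tested.

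Ribosomal protein mRNAs were abundant, and their levels differed widely from one member to the next. Of the 81 members, 49 had a mean normalized count over 1000 across the 18 libraries and 5 had one under 100. Normalized counts are read counts that the authors divided by a size factor for each library, and in a 3′ method they do not grow with transcript length. Rpl4, a protein of the large subunit, had the highest mean (14988 normalized counts) and alone took 8.91% to 12.5% of the members' reads in a library. Rps9, Rpl23 and Rpl23a were also among the most abundant members. Rpl13a had a mean of only 54.7 normalized counts. Only uniquely mapped reads were counted, and ribosomal protein genes have many near-identical copies, whose part in this order was not tested. In 26 members, Rpl13a among them, no 50-base window of the last 300 transcript bases recurred in another gene. In 41 at least 50% of the windows did, and in 4 (Rps27, Rpl9, Rpl10 and Rpl36a) all of them did. The median of the mean counts was 1072 in the 41 members and 1606 in the other 40. A level is therefore best compared for the same member between groups.

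The paralogs that are made in testis, muscle or other special tissues were almost silent. Rpl10l was at 0 in 17 of the 18 libraries and had 0.75 normalized counts in the remaining one. Rpl3l, a muscle form of Rpl3, had 0 to 6.77 normalized counts per library. Rpl39l, a paralog of Rpl39, had 0 to 8.21. These 3 members stayed under the mean of 10 normalized counts required for testing, so 78 members were tested in each comparison. The other named paralogs were expressed: Rps27l, a p53-responsive relative of Rps27, had 170 to 315 normalized counts per library, and Rpl36al, a relative of Rpl36a, had 44.7 to 129.

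The members' share of reads did not move far in either experiment, except that it was lower with the combination of IFN-γ and E. coli. The members took 3.19% ± 0.160 of the reads with ACs alone (SD, n = 3), 3.15% ± 0.125 with E. coli, 3.10% ± 0.113 with IFN-γ and 2.63% ± 0.0705 with both. The 3 libraries of the combination (2.59% to 2.71%) lay below all 9 others of the experiment (3.01% to 3.37%). In the IL-4 experiment the share was 4.08% ± 0.266 with ACs alone and 4.30% ± 0.0347 with IL-4. In summed normalized counts the order was different: 124821 ± 8166 with ACs alone, 131674 ± 5620 with E. coli, 143317 ± 6082 with IFN-γ, 122508 ± 4879 with both, and 166840 ± 8929 and 179534 ± 8492 in the 2 groups of the IL-4 experiment. By normalized counts the 3 libraries with IFN-γ (137045 to 149188) lay above the 3 with ACs alone (118637 to 134078). The 2 measures differ because the total normalized count per library rose from a mean of 3912175 with ACs alone to 4619496 with IFN-γ and 4654169 with both. The sums are given as a description, with no test. The ACs groups of the 2 experiments also differed in the members' share, and the experiment and the group of ACs libraries cannot be told apart there.

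**Figure D1:**
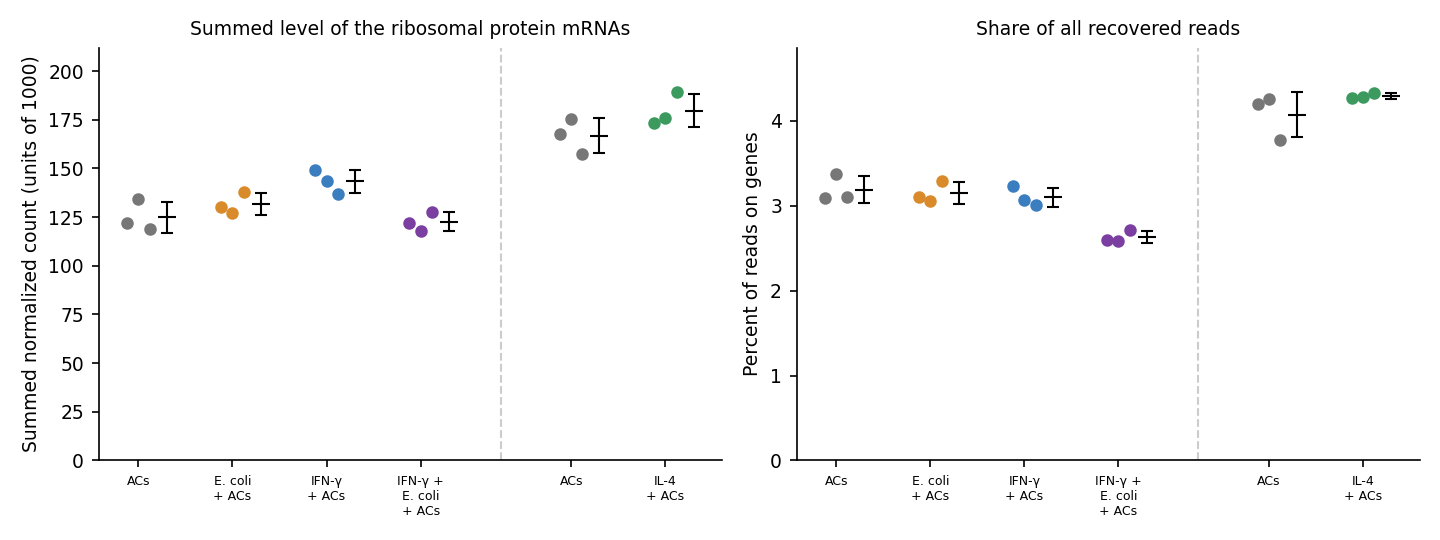
Summed level of the 81 ribosomal protein mRNAs in each library, as summed normalized count in units of 1000 (left) and as percent of all reads on genes (right). Points are single libraries, and the black mark with bars beside each group is the mean with its SD (n = 3). The 3 libraries with IFN-γ and E. coli sit at 2.59% to 2.71% of reads, below the other 9 libraries left of the dashed line, which separates the experiments, while by normalized counts they overlap those with ACs alone.

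The balance of the subunits was nearly constant. Small-subunit mRNAs made up 39.5% ± 0.411 of the members' reads with ACs alone, 39.6% ± 0.759 with E. coli, 40.01% ± 0.738 with IFN-γ and 39.8% ± 0.956 with both (SD, n = 3). The IL-4 experiment had 41.4% ± 0.339 with ACs alone and 41.1% ± 0.534 with IL-4. Within each experiment these means differed by less than the largest SD of its groups. The spread between replicates was also small. The median SD of the log2 value within a group was 0.14 over the 78 tested members, 0.14 over the 67 with a mean of at least 500, and 0.17 over all 1512 genes with a mean of at least 500.

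Against ACs alone, few members passed the threshold of an adjusted p under 0.05 (limma, Benjamini-Hochberg over all tested genes) with a change of at least 1.5-fold. With E. coli 0 of 78 members passed, where 10.3% of all tested genes did (5.05% higher and 5.25% lower). With IFN-γ 1 rose (Rps27) and 0 fell, where 11.4% and 9.96% of all genes did. With IFN-γ and E. coli 1 rose (Rps27) and 1 fell (Rpl10a), where 14.7% and 17.2% of all genes did. With IL-4 0 of 78 passed, where 1.09% of all genes did. For the 2 counts of 0, an unadjusted limma p under 0.05 was reached by 7 members with E. coli and by 11 with IL-4, and both edgeR and DESeq2 on the recovered reads also called 0 members in either comparison. The counts of 1 moved when single libraries were left out: with IFN-γ 3 members rose without ACs replicate 2 and 2 without any one of the IFN-γ replicates. With the combination 2 rose without ACs replicate 1, ACs replicate 2 or combination replicate 2, and 4 fell without combination replicate 2 and 2 without ACs replicate 3 or combination replicate 3.

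For most members the intervals were narrow enough to bound the change. The 95% interval of the fold change lay wholly within 1.5-fold in either direction for 71 of 78 members with E. coli (91.0%), 58 with IFN-γ (74.4%), 57 with both (73.1%) and 64 with IL-4 (82.1%). Over all tested genes these shares were 27.4%, 21.1%, 16.7% and 22.4%, and over genes with a mean of at least 500 they were 60.0%, 44.1%, 35.5% and 65.4%. The members' median log2 fold change was 0.11 with E. coli, 0.18 with IFN-γ, −0.11 with both and 0.10 with IL-4, beside −0.05 to −0.00 over all genes. The direction of these small medians depends on scaling: when each library was set to the same total of all other genes, the median with IFN-γ became −0.06 and that with both −0.37, while the median over all genes became −0.24 and −0.30. With the same total of other genes, 13 of 78 members fell with the combination and 1 rose, where 26.8% and 9.07% of all genes did.

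**Figure D2:**
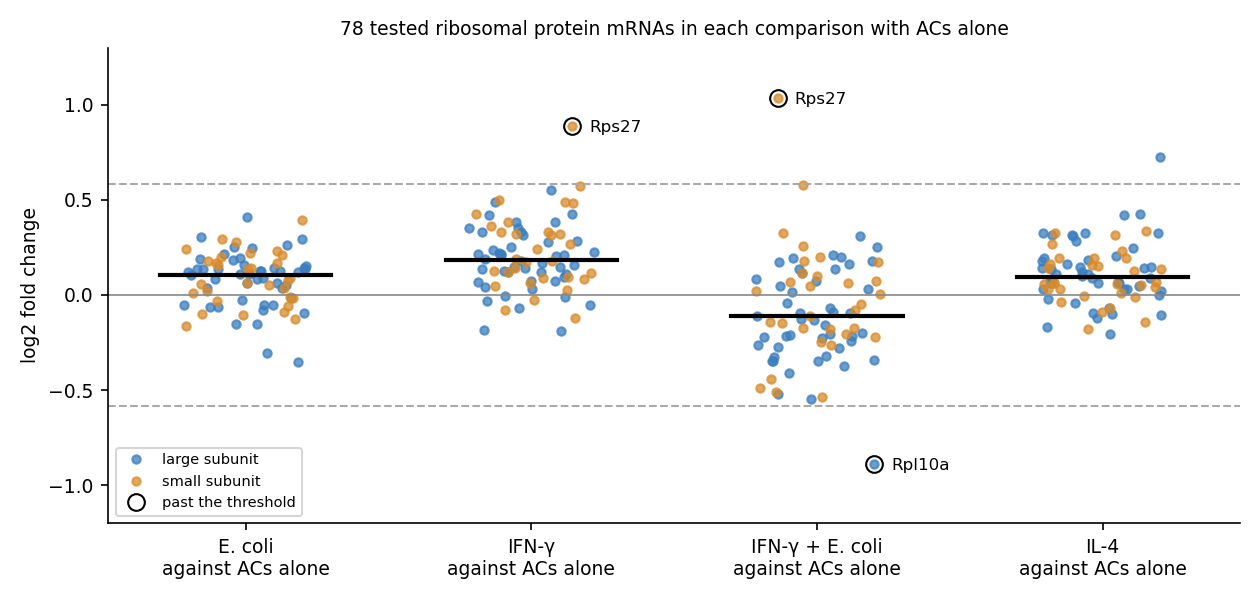
log2 fold change of the 78 tested members against ACs alone of the same experiment, one column per stimulus. Blue points are large-subunit and orange points small-subunit members, black bars the medians, dashed lines a 1.5-fold change, and rings the members past the threshold. Rps27 lies at 0.89 with IFN-γ and at 1.04 with IFN-γ and E. coli, Rpl10a lies at −0.89 with the combination, and Rpl13a lies at 0.73 with IL-4, outside the dashed line without passing the test.

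Rps27, a zinc-finger protein of the small subunit, was the member that rose. Its normalized counts were 274, 306 and 273 with ACs alone, 383, 340 and 400 with E. coli, 538, 440 and 618 with IFN-γ, and 747, 454 and 588 with IFN-γ and E. coli. All libraries of each stimulated group lay above those with ACs alone. The log2 fold change was 0.89 (SE 0.17, adjusted p = 0.00045, limma) with IFN-γ and 1.04 (SE 0.17, adjusted p = 6.0e-05) with both, and both calls were made under each of the 22 alternatives run, with adjusted p-values between 7.8e-06 and 0.0054 for IFN-γ and between 1.2e-08 and 0.00086 for both. With E. coli alone it was 0.39 (SE 0.17, adjusted p = 0.13), with a 95% interval of 0.05 to 0.74. In the IL-4 experiment the counts were 523, 624 and 584 with ACs alone and 525, 551 and 452 with IL-4, which overlap (log2 fold change −0.18, SE 0.14, adjusted p = 0.73).

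The rise of Rps27 can also be read within each library, without any scaling between libraries. Out of every 10000 reads of the members, Rps27 took 22.5, 22.8 and 23.0 with ACs alone and 29.4, 26.8 and 29.0 with E. coli. It took 36.1, 30.6 and 45.1 with IFN-γ and 61.2, 38.5 and 46.0 with both. The 4 groups have means of 22.8, 28.4, 37.3 and 48.6, and the ranges of the groups with IFN-γ overlap each other but neither of those without it. All of the last 300 bases of its transcript recur in other genes, mostly pseudogenes, and the copies themselves had a summed mean of 0.658 normalized counts, so reads of Rps27 and of its copies cannot be told apart and some may have been dropped as not unique. The paralog Rps27l was not past the threshold: its means were 227 ± 35.5, 275 ± 36.4, 239 ± 15.5 and 217 ± 46.9 over the same 4 groups (SD, n = 3), with adjusted p-values of 0.34, 0.78 and 0.76 (limma).

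Rpl10a, a protein of the large subunit that lies at its L1 stalk, was the member that fell most. Its normalized counts were 702, 772 and 694 with ACs alone, 654, 635 and 767 with E. coli, 642, 651 and 605 with IFN-γ, and 355, 445 and 374 with both. The 3 libraries of the combination lay below the 9 others without overlap. The log2 fold change against ACs alone was −0.89 (SE 0.12, adjusted p = 1.3e-05, limma), and Rpl10a was called under each of the 22 alternatives, with adjusted p-values between 1.3e-10 and 0.00019. It was also lower with the combination than with IFN-γ alone (−0.70, SE 0.12, adjusted p = 0.00052) and than with E. coli alone (−0.81, SE 0.12, adjusted p = 8.5e-05). Out of every 10000 reads of the members it took a mean of 57.9 with ACs alone, 52.0 with E. coli, 44.2 with IFN-γ and 32.0 with both. With IL-4 its counts were 1351, 1461 and 1820 beside 1275, 1190 and 1206 with ACs alone of that experiment, a log2 fold change of 0.32 (SE 0.14, adjusted p = 0.50). Of the windows at its 3′ end, 87.3% recur in other genes, all of them pseudogenes, with a summed mean of 24.0 normalized counts.

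**Figure D3:**
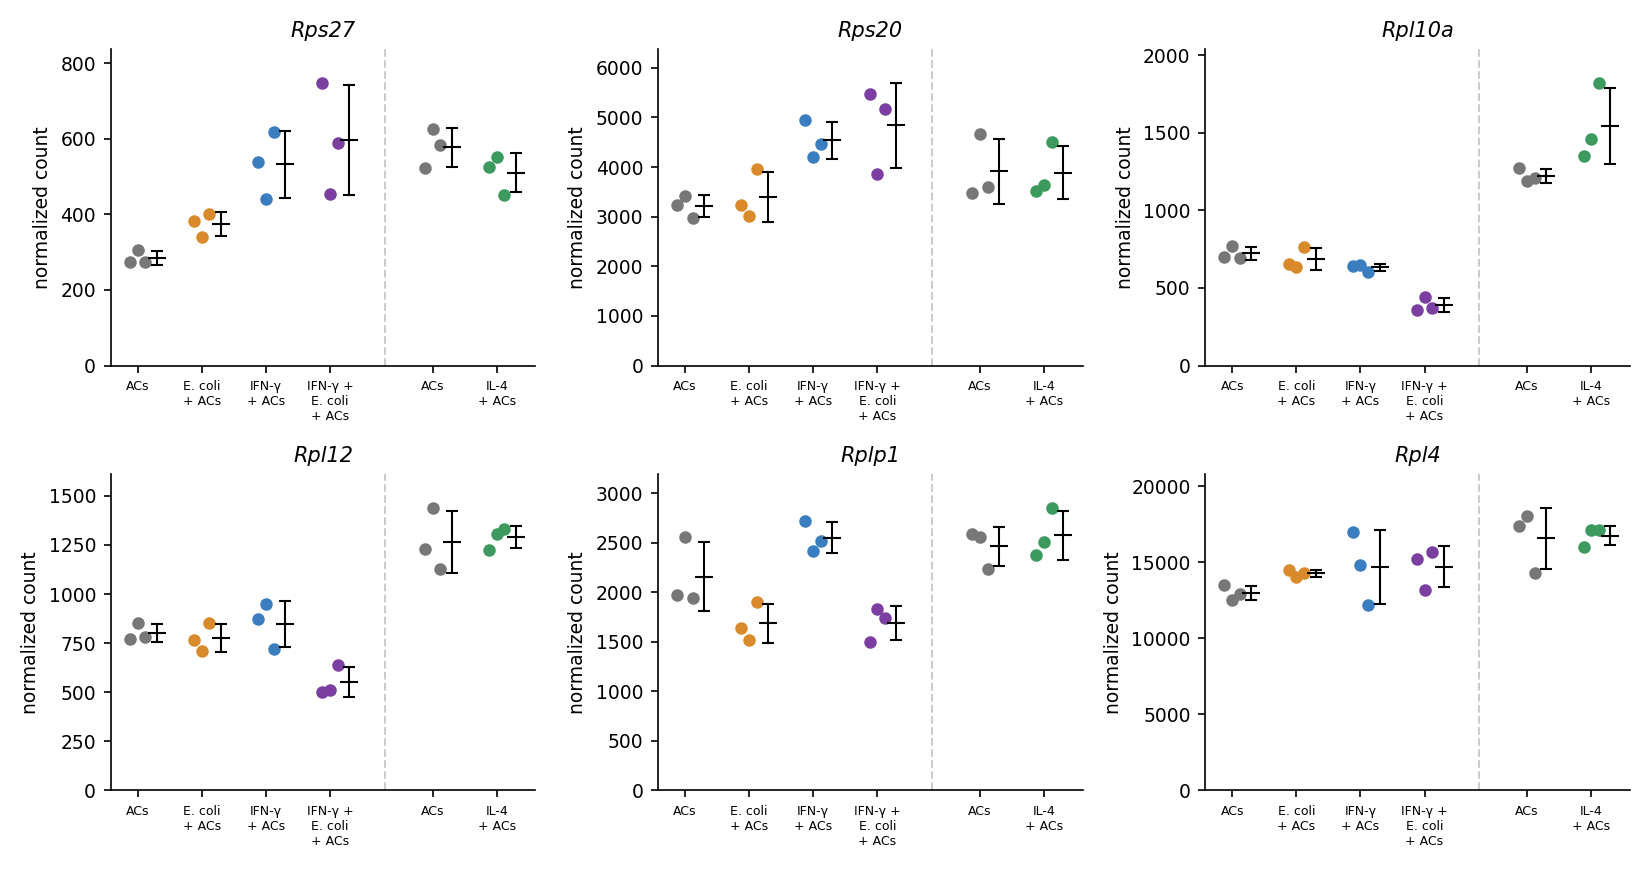
Normalized counts of 6 members in each library, with the axis starting at 0. Coloured points are libraries, the black mark with bars is the mean with its SD (n = 3), and the dashed line separates the experiments. Rps27 stood at 273 to 306 with ACs alone and 454 to 747 with IFN-γ and E. coli, Rpl10a at 694 to 772 and 355 to 445, while Rpl4 in both groups with IFN-γ overlapped ACs alone.

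Members of both subunits came close to the threshold with IFN-γ. Rps20, which sits in the head of the small subunit, had 3232, 3414 and 2974 normalized counts with ACs alone, 4944, 4205 and 4469 with IFN-γ, and 5474, 3869 and 5173 with both. Neither stimulated group overlapped ACs alone, and the log2 fold changes were 0.50 (adjusted p = 0.0085, limma) and 0.58 (adjusted p = 0.0019), just under 1.5-fold. Rps20 was chosen for mention after its values were seen, as were Rps28, Rps24 and Rpl10. Rps28 had 664.5 ± 86.4 with ACs alone and 988 ± 95.3 with IFN-γ (SD, n = 3) and a log2 fold change of 0.58 (adjusted p = 0.0015). Rps24 was higher by 0.49 on the same scale (adjusted p = 0.0019). Among large-subunit members, Rpl39 was higher by 0.55 (adjusted p = 0.026) and Rpl10 by 0.49 (adjusted p = 0.029). By the adjusted p alone, with no threshold of size, 19 members were higher and 0 lower with IFN-γ, where 15.3% and 12.1% of all genes were. With the combination 3 were higher and 13 lower, where 19.8% and 19.3% of all genes were.

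The P-stalk, which recruits the GTPases that drive translation, is made of the scaffold Rplp0 and the dimers of Rplp1 and Rplp2. Rplp0 had 2027 ± 179 normalized counts with ACs alone, 2250 ± 59.0 with E. coli, 2101 ± 320 with IFN-γ and 1611 ± 265 with both (SD, n = 3). Rplp1 had 2161 ± 344, 1689 ± 198, 2553 ± 155 and 1692 ± 175 in the same order. Rplp2 had 911 ± 164, 739 ± 137, 983 ± 43.8 and 715 ± 134. Against ACs alone, the log2 fold changes with the combination were −0.34, −0.35 and −0.35 (adjusted p = 0.047, 0.036 and 0.092, limma), none past 1.5-fold. Rplp1 was past the threshold between the stimuli: it was higher with IFN-γ than with E. coli by 0.60 (SE 0.13, adjusted p = 0.0018) and lower with the combination than with IFN-γ, at −0.60 (adjusted p = 0.0023). The first call was lost with edgeR, with scaling to a common upper quartile or to the same total of other genes, and without E. coli replicate 1, E. coli replicate 2 or IFN-γ replicate 1, and the second with edgeR, with DESeq2 and without IFN-γ replicate 1 or combination replicate 1. With IL-4 the 3 values were 0.20, 0.06 and 0.11, none past the threshold.

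Rpl5, Rpl11, Rps6, Rps3, Rpsa and Rpl13a, which have links beyond the ribosome itself, showed no change past the threshold against ACs alone. Rpl5 and Rpl11 bind MDM2 with the 5S ribosomal RNA and so link ribosome assembly to p53. Rpl5 had 2340 ± 97.4 normalized counts with ACs alone, 2259 ± 79.3 with E. coli, 2649 ± 85.3 with IFN-γ and 2394 ± 207 with both (SD, n = 3). Rpl11 had 934.5 ± 87.2, 1016 ± 44.3, 994.5 ± 60.7 and 734 ± 64.4, with a log2 fold change of −0.35 (adjusted p = 0.021) for the combination. Rps6, whose phosphorylation is a readout of growth signals, had log2 fold changes of 0.05, 0.14, 0.05 and 0.19 with E. coli, IFN-γ, both and IL-4. Rps3, also a DNA repair factor, had 0.22, 0.32, 0.02 and 0.07. Rpsa, known as a laminin receptor, had 0.01, 0.11, −0.44 and −0.01, the third with an adjusted p of 0.011. Rpl13a, which in its phosphorylated form silences inflammatory mRNAs in IFN-γ-treated myeloid cells, had 48.9 ± 10.6 normalized counts with ACs alone, 56.7 ± 8.15 with IFN-γ and 45.6 ± 7.51 with both, and its intervals reached 0.76 with IFN-γ and −0.63 with both. With IL-4 Rpl13a had 64.9, 70.6 and 97.7 beside 49.6, 45.2 and 42.9, without overlap, a log2 fold change of 0.73 (SE 0.26) that did not pass the test (adjusted p = 0.40).

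Apart from Rps27, whose values are given above, the most abundant members and the partners of the paralogs were likewise not past the threshold. Rpl4 had log2 fold changes of 0.14, 0.17, 0.18 and 0.02 with E. coli, IFN-γ, both and IL-4, and the 95% intervals of all 4 lay within −0.26 to 0.43. Rps9 had 0.18, 0.09, −0.17 and 0.16. Rpl23 had 0.14, 0.38, 0.25 and 0.03, the second with an adjusted p of 0.016 (limma). Rpl23a had 0.14, 0.21, 0.20 and 0.43. Rpl3, the conserved core protein near the peptidyl transferase centre, had 0.19, −0.03, −0.11 and 0.09. Rpl39, which lines the exit tunnel, had 0.04, 0.55, 0.21 and −0.21, the second with an adjusted p of 0.026. Rps19, which is mutated in Diamond-Blackfan anaemia, had 0.09, 0.32, −0.26 and 0.14. Rps4x had −0.10, −0.03, −0.25 and 0.23, Rpl36a 0.04, 0.23, −0.20 and −0.04, and Rpl36al 0.14, 0.42, 0.17 and 0.18.

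A pattern across nearly all members appeared when the effect of E. coli in the presence of IFN-γ was set against its effect in the absence of IFN-γ. This difference of effects was below 0 for 77 of the 78 members, where 52.1% of all tested genes were below 0, and Rps20, at 0.00, was the exception. The members' median was −0.36 on the log2 scale, beside −0.03 over all genes and −0.07 over genes with a mean of at least 500. By the threshold 8 members were lower and 0 higher, where 4.28% and 3.16% of all genes were. These 8 were Rps14, Rpl15, Rps19, Rpl18, Rpl34, Rps28, Rpl10a and Rpl29, with values from −0.76 to −0.61. The members are not independent of each other, so the count describes these libraries. Under every scaling run the members' median minus that of all genes stayed at −0.36 to −0.31. The count past the threshold fell to 2 when libraries were set to the same total of other genes, where 3.44% of all genes were lower. That count also moved with single libraries: it was 16 without IFN-γ replicate 3, 14 without combination replicate 2, and 2 to 5 without any other single library except combination replicate 3. With a replicate block in both groups with IFN-γ, 9 were lower, Rpl10 being added.

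Rpl15, a core protein of the large subunit, shows the pattern in its values: 1675, 1764 and 1608 normalized counts with ACs alone, 1683, 1760 and 2080 with E. coli, 2265, 2166 and 1857 with IFN-γ, and 1530, 1417 and 1243 with both. The libraries of the combination lay below all others of the experiment, and the difference of effects was −0.71 (SE 0.17, adjusted p = 0.013, limma). Rps28, a small-subunit protein near the mRNA exit, had 622, 764 and 608, then 804, 761 and 778, then 881, 1021 and 1063, and with both 677, 799 and 764 (difference of effects −0.64, SE 0.17, adjusted p = 0.029). In Rps28 the combination overlapped E. coli alone and lay below IFN-γ alone, and the difference was called under 15 of 23 alternatives with the fold threshold kept. Rpl18, Rps14, Rpl15 and Rps28 each overlap a protein-coding gene on the opposite strand (Sphk2, Ndst1, Nkiras1 and Kank3). Those genes had mean normalized counts of 307, 145, 25.7 and 14.6. Rpl10a overlaps a noncoding gene on the opposite strand (CT025652.2) with a mean of 0. CEL-Seq2 reads carry strand, but the strand setting of the counting was not given in the sources used here. The summed macrophage markers were lower with the combination than with IFN-γ alone (6319 to 6875 against 20322 to 29116). They were also lower with E. coli alone (5613 to 7292) than with ACs alone (13460 to 17356), where the members' median was 0.11, and their part in the members' values was not tested.

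**Figure D4:**
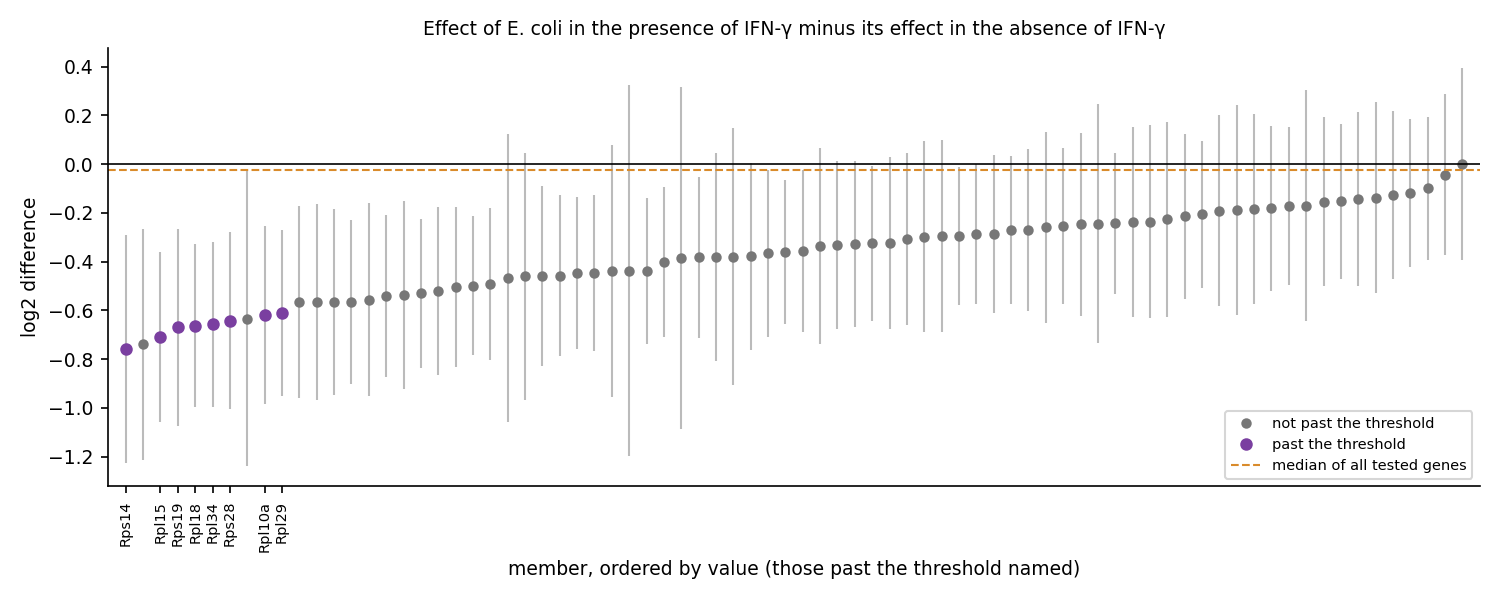
Effect of E. coli in the presence of IFN-γ minus its effect in the absence of IFN-γ, on the log2 scale, for the 78 tested members in order of value. Points are limma estimates, grey bars 95% intervals, purple points the 8 members past the threshold, and the dashed line the median of all tested genes (−0.03). The points of 77 members lie below 0 and the median of the members is −0.36.

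The combination was also compared directly with IFN-γ alone. Of 78 members 4 were lower (Rpl10a, Rpl12, Rplp1 and Rpl15) and 0 higher, where 8.61% and 5.96% of all tested genes were, and the members' median was −0.30. Rpl12, which forms the base of the P-stalk, had 872, 950 and 718 normalized counts with IFN-γ and 500, 513 and 639 with the combination, without overlap (log2 fold change −0.62, SE 0.13, adjusted p = 0.0026, limma). The count of 4 became 9 without IFN-γ replicate 3 and 2 without IFN-γ replicate 2 or combination replicate 1. By the adjusted p alone 30 members were lower and 0 higher, where 10.3% and 9.47% of all genes were. The groups did not overlap for 46 members, all lower with the combination, where 15.3% of all genes were lower without overlap. Against E. coli alone, the combination had 1 member higher (Rps27, 0.64, adjusted p = 0.0078) and 3 lower (Rpl10a, Rps14 and Rpl8, from −0.81 to −0.62), where 9.79% and 9.57% of all genes were. The count of 3 became 7 without combination replicate 2, and that of 1 became 0 without E. coli replicate 2 or combination replicate 1 and 2 without E. coli replicate 3 or combination replicate 2. IFN-γ against E. coli gave 2 higher (Rplp1 and Rps24) and 0 lower, where 9.84% and 6.72% of all genes were, and the count of 2 became 0 without E. coli replicate 2 and 1 without E. coli replicate 1, IFN-γ replicate 1 or IFN-γ replicate 3. Rps24 had 1545, 1531 and 1726 with IFN-γ and 1052, 1015 and 1110 with E. coli, a log2 fold change of 0.59 (SE 0.11, adjusted p = 0.00042). These comparisons share libraries with each other and with those against ACs alone, and the members in them were named after their values were seen.

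The IL-4 effect differed from the effect of the combination for 7 members, each taken against the ACs of its own experiment. It was higher for 5 (Rpl10a, Rpl29, Rpl8, Rpl13 and Rpl11) and lower for 2 (Rps27 and Rps20), where 9.67% and 10.8% of all tested genes were. These counts depend on scaling: 15 were higher and 1 lower with a common upper quartile, and 25 and 1 with the same total of other genes. The difference was 1.21 for Rpl10a (SE 0.18, adjusted p = 3.4e-05, limma) and −1.22 for Rps27 (SE 0.23, adjusted p = 0.00052). Rpl29 had 789, 707 and 681 normalized counts with ACs alone and 912, 890 and 1120.5 with IL-4, and in the other experiment 631, 685 and 696 with ACs alone and 533, 535 and 486 with the combination, a difference of 0.79 (SE 0.17, adjusted p = 0.0016). In Rpl29 neither pair of groups overlapped, and they lay in opposite order, but neither effect passed the threshold by itself. The log2 fold change was 0.42 with IL-4 (adjusted p = 0.36, limma) and −0.37 with the combination (adjusted p = 0.015), the second under 1.5-fold. The highest IL-4 value of Rpl29 was from a shallow library. The stimulus and the experiment cannot be told apart in these differences, and the third replicates of the IL-4 experiment were shallow: without those 2 libraries 4 members were higher and 2 lower. Without single libraries, 8 or 9 members were higher where ACs replicate 1 or 3, combination replicate 2, or replicate 1 of either group of the IL-4 experiment was left out, and in 13 of 18 such fits only Rps27 was lower.

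The other genes of the ribosome and of translation were taken from lists. Of the 7 ribosomal proteins whose symbols are outside the naming rule, 5 were tested (among them Fau and Rack1) and 0 passed the threshold in any of the 4 comparisons with ACs alone, with medians of 0.18, 0.22, 0.15 and 0.07 with E. coli, IFN-γ, both and IL-4. Of 7 elongation factors only Eef1d, a subunit of the exchange factor eEF1B, passed: it fell with the combination, from 300.5 to 140 normalized counts (log2 fold change −1.16, adjusted p = 7.7e-05, limma). Of 34 initiation factors tested, 1 rose with E. coli (Eif4a1, the RNA helicase), 3 rose with IFN-γ, and 4 rose and 1 fell with the combination. Over all tested genes 5.05% rose with E. coli, 11.4% with IFN-γ and 14.7% with the combination, and 17.2% fell with the combination. Eif2s2, a subunit of eIF2, and Eif5b, which joins the subunits, had log2 fold changes of 0.74 and 0.73 with IFN-γ, and Eif3j1 and Eif5 had 0.77 and 0.69 with the combination, in which Eif3i, a subunit of eIF3, was at −0.60.

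Among 18 tested genes that control translation and growth, 0 rose and 1 fell with E. coli, 5 rose and 1 fell with IFN-γ, and 5 rose and 2 fell with the combination. The shares over all genes were 5.05% and 5.25%, 11.4% and 9.96%, and 14.7% and 17.2%. Larp1, which binds the cap and the first bases of TOP mRNAs, had 334 normalized counts on average with ACs alone, 566 with IFN-γ (log2 fold change 0.75, adjusted p = 0.00044, limma) and 679 with the combination (1.02, adjusted p = 1.1e-05). Eif4ebp1, an inhibitor of cap-dependent initiation that mTORC1 controls, had 287, 495 and 549 (0.78 and 0.91). Mnt, a partner of MAX that opposes MYC, was at 0.92 with the combination. Eif4ebp2, a second inhibitor of the same kind, went the other way, with 1252, 764 and 798 (−0.71 and −0.66). Rptor, the mTORC1 subunit that recruits substrates, was low, at 59.7 normalized counts with ACs alone, 27.0 with E. coli (−1.12) and 29.9 with the combination (−1.003).

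Mitochondrial ribosomal proteins, which build the separate ribosome of the mitochondrion, were lower with the combination in many cases. Of 76 tested, 2 rose and 27 fell, with a median log2 fold change of −0.41, beside 1 and 1 of the 78 cytosolic members and 14.7% and 17.2% of all genes. Mrps5, a small-subunit protein, had 102 normalized counts with ACs alone and 27.3 with the combination (−1.96, adjusted p = 1.2e-05, limma), and Mrps11 had 19.0 and 4.99 (−1.86). Mrpl45, a membrane anchor of that ribosome, rose from 179 to 437 (1.24), and Mrpl54 rose from 32.5 to 74.6 (1.18). With E. coli alone 1 rose and 1 fell (Mrpl45 and Mrpl33), with IFN-γ alone 3 rose and 3 fell, and with IL-4 0 of 77 passed. The difference between the 2 kinds of ribosome was not tested as such. The 13 mitochondrially encoded genes had a median of 0.24 with the combination, with 0 higher and 1 lower (mt-Nd6).

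Of 40 tested genes for ribosome assembly, 1 fell with E. coli, 1 with IFN-γ and 6 with the combination, and 0 rose in any of them, with medians of 0.09, −0.11 and −0.22. Over all tested genes 5.25%, 9.96% and 17.2% fell, so the counts that fell were not above those shares. Utp14a, which acts in processing of small-subunit rRNA, fell in all 3 (401.9 normalized counts on average with ACs alone, then 261, 197 and 189). Nle1 and Gar1, a 60S assembly factor and a subunit of the snoRNPs that modify rRNA, were low and had −1.83 and −1.49 with the combination. Of 10 tested subunits of RNA polymerase I and its factors, 1 fell with the combination (Polr1a, the largest subunit, from 136 to 80.3 normalized counts). With IL-4 none of the genes of these lists passed the threshold by limma.

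**Figure D5:**
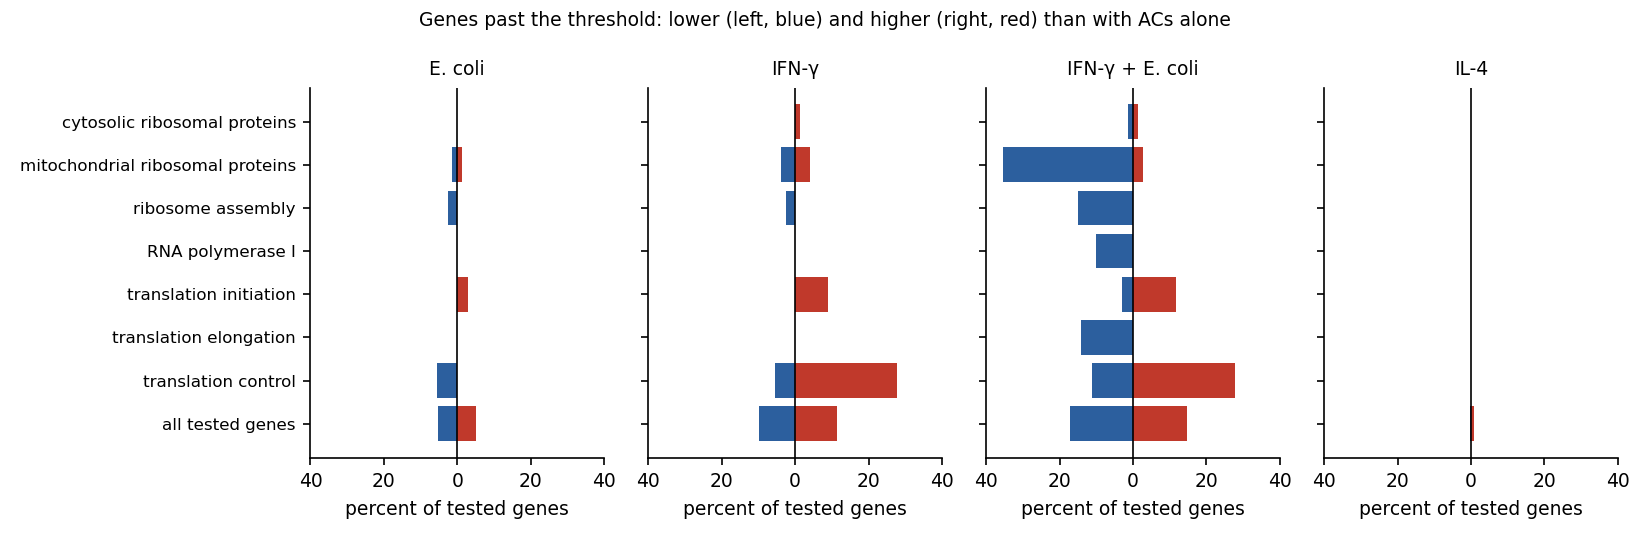
Percent of the tested genes of each list that passed the threshold against ACs alone, lower to the left in blue and higher to the right in red, for the 4 stimuli, with all tested genes in the bottom row. With IFN-γ and E. coli 27 of 76 mitochondrial ribosomal proteins were lower beside 1 of 78 cytosolic ones, and with IL-4 none of the lists other than all tested genes has a bar.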

How the data were processed

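Peritoneal eosinophils of NJ.1638 Il5Tg mice were profiled by CEL-Seq2 in 18 libraries, 6 groups of 3, grouped by their titles in the labels. The authors deposited 1 table of normalized counts (read counts per gene divided by DESeq2 size factors) on GRCm38, so each value is a count-scaled signal and not a raw count. The submitters' processing notes name FastQC 0.11.5, Trim Galore, cutadapt 1.10, TopHat2 2.1.0, Bowtie2 2.2.6, HTSeq 0.6.1 and DESeq2 1.26.0, while the study's methods also describe a pipeline with fastp and STAR. Which of these made the table is not given in the sources used here. Only uniquely mapped reads were counted per the study's methods, so values of genes with near-identical copies are uncertain, and size factors hold a typical gene level between libraries, so summed levels depend on that choice.

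The members and the gene lists were chosen with earlier results of these data known. Values were tested as log2(normalized count + 1) with limma 3.58.1 (trend) in R 4.3.3, over genes averaging at least 10 in the libraries of the fit (10166 genes in the Type 1 experiment, 10669 in the IL-4 experiment, 10414 over all 18 libraries). Fold changes are on this scale, which understates those of low genes. A call needed a Benjamini-Hochberg adjusted p under 0.05 over all tested genes and a change of at least 1.5-fold, and 9 comparisons were made. The Type 1 comparisons shared 1 fit of 12 libraries and the IL-4 comparison used its own 6. The difference between the IL-4 effect and that of the combination was taken in 1 fit of all 18. Whole reads could be recovered from the normalized counts (100.0% of values within 0.02 of a whole number), and edgeR 4.0.16 (quasi-likelihood, TMM) and DESeq2 1.42.0 were run on them as alternatives. edgeR called 21.9% of all genes with IFN-γ and 32.2% with the combination. Other alternatives were a pseudocount of 5, no filter or a mean of at least 50, scaling to the upper quartile or to the total of all genes other than the members, array weights, no fold threshold, all libraries in 1 fit, the replicate number as a block, each replicate left out and, chosen after seeing the data, both shallow libraries left out and a replicate block in both groups with IFN-γ alone or with E. coli. The latter was added because deviations from the group means correlated at 0.161 to 0.221 in the 3 same-numbered pairs of these groups (−0.163 to 0.0256 in the 6 other pairs). The 2 sets of pairs are not independent, because the deviations within a group sum to 0. The choice of this block was taken from the data, as no label says what a number marks. The scripts were tested on simulated data.

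Named by rule were, per comparison with ACs alone, up to 5 members with the largest rise and up to 5 with the largest fall past the threshold, with groups that do not overlap, the higher of which averages at least 50. Also named were the 5 members with the highest mean, the P-stalk members, the paralogs Rps27l, Rpl36al, Rpl3l, Rpl10l, Rpl39l and Rps4l (those that are members), and Rps27, Rpl36a, Rpl3, Rpl39, Rps4x, Rpl13a, Rpl5, Rpl11, Rps3, Rps6, Rps19 and Rpsa. Up to 2 genes per direction were named from each list per comparison with ACs alone. Other members were named after their values were seen, and some results of the rule are not reported here. Replicates of a group differed by more than counting noise (chi-square per degree of freedom of at least 3.92). Depth limits the third replicates of the IL-4 experiment most. Sequences are from RefSeq (GRCm38.p6).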

Additional observations from a re-analysis of the deposited data

Results flagged for a closer look

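For 8 members the effect of E. coli with IFN-γ differed from its effect without IFN-γ, where 4.28% of all tested genes were lower and 3.16% higher. The test was the limma test of the difference itself, with the adjusted p over all genes. On the log2 scale the differences were −0.76 for Rps14 (SE 0.22, adjusted p = 0.043), −0.71 for Rpl15 (SE 0.17, adjusted p = 0.013), −0.67 for Rps19 (SE 0.19, adjusted p = 0.040) and −0.66 for Rpl18 (SE 0.16, adjusted p = 0.016). They were −0.66 for Rpl34 (SE 0.16, adjusted p = 0.017), −0.64 for Rps28 (SE 0.17, adjusted p = 0.029), −0.62 for Rpl10a (SE 0.17, adjusted p = 0.035) and −0.61 for Rpl29 (SE 0.16, adjusted p = 0.027). Rpl15 and Rpl18 were called under each of the 23 alternatives of this comparison with the fold threshold kept. The other members were called less often: Rpl34 under 19 of the 23, Rps28 under 15, Rpl29 under 14, Rpl10a under 13, Rps19 under 11 and Rps14 under 9.

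For 7 members the IL-4 effect differed from the effect of the combination, each against ACs of its own experiment, by the same kind of test. Over all tested genes 9.67% were higher and 10.8% lower, so the members' counts were not above those shares in the main fit. The counts and shares under other scaling are given with the results. The differences were −1.22 for Rps27 (SE 0.23, adjusted p = 0.00052) and −0.59 for Rps20 (SE 0.21, adjusted p = 0.049). They were 0.63 for Rpl11 (SE 0.17, adjusted p = 0.0098), 0.64 for Rpl13 (SE 0.14, adjusted p = 0.0017), 0.64 for Rpl8 (SE 0.18, adjusted p = 0.016), 0.79 for Rpl29 (SE 0.17, adjusted p = 0.0016) and 1.21 for Rpl10a (SE 0.18, adjusted p = 3.4e-05). Rps27, Rpl10a and Rpl29 were called under each of 28 alternatives with the fold threshold kept, and Rps20 under 10 of them. With 3 libraries per group, no single library was tested as standing apart.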

How the results depend on the processing

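The counts of members past the threshold were 0 with E. coli and with IL-4 under every alternative run. Without the fold threshold, 19 members were higher with IFN-γ, and 3 were higher and 13 lower with the combination. Over all genes 15.3% were higher with IFN-γ, and 19.8% higher and 19.3% lower with the combination. Lower with the combination than with IFN-γ were 30 members, where 10.3% of all genes were. Higher with IFN-γ than with E. coli were 9 members, and against E. coli the combination had 2 higher and 21 lower. In the difference of E. coli effects 13 were lower, and 13 were higher in the IL-4 effect minus the combined effect. The shares over all genes for these last comparisons are not given here. Scaling to the upper quartile gave 6 lower with the combination against ACs, 8 lower against IFN-γ, 0 higher and 8 lower against E. coli, 0 higher with IFN-γ against E. coli, and 15 higher and 1 lower in the IL-4 difference. Scaling to the total of other genes gave 13 lower with the combination against ACs, 0 higher and 11 lower against E. coli, 0 higher with IFN-γ against E. coli, 2 lower in the difference of E. coli effects, and 25 higher and 1 lower in the IL-4 difference. It turned the members' median to −0.057 with IFN-γ and to −0.040 for IFN-γ against E. coli. The summed level as a share of reads was 0.988 and 0.973 times that with ACs alone for E. coli and IFN-γ, on the other side of 1 than by normalized counts, and 0.825 times for the combination. edgeR gave 2 higher with the combination, 0 for IFN-γ against E. coli and 2 lower for the combination against IFN-γ, and DESeq2 gave 2, 1 and 2. Array weights gave 2, 1 and 7 for these, 13 lower in the difference of E. coli effects and 2 higher in the IL-4 difference. With all genes above 0 tested, the difference of E. coli effects had 4 lower. A pseudocount of 5, all genes above 0 and the replicate block each left 1 lower in the IL-4 difference. Apart from single libraries, 166 of the other recomputed counts stayed within 1.5 times. No call of a member named by rule in the comparisons with ACs alone was lost or turned. The cause of these moves was not tested.

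With each library left out in turn, the members higher ranged over 1 to 3 (IFN-γ), 1 to 2 (combination), 0 to 3 (IFN-γ against E. coli), 0 to 2 (combination against E. coli) and 4 to 9 (IL-4 difference). Those lower ranged over 1 to 4 (combination), 2 to 9 (combination against IFN-γ), 2 to 7 (combination against E. coli), 2 to 16 (difference of E. coli effects) and 1 to 3 (IL-4 difference).

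Of all genes called, the percent higher moved with scaling to the total of other genes from 49.0 to 35.0 (E. coli), 53.4 to 28.2 (IFN-γ), 46.1 to 25.3 (combination), 59.4 to 41.7 (IFN-γ against E. coli), 50.6 to 29.4 (combination against E. coli), 42.5 to 56.0 (difference of E. coli effects) and 47.3 to 68.1 (IL-4 difference). Deviations from the group means correlated at 0.161 to 0.221 between same-numbered libraries with IFN-γ and with the combination. These 2 groups were singled out after the values were seen, and whether the numbers mark a pairing was not tested. Over all 18 same-numbered pairs of the Type 1 experiment the correlation was 0.0032 on average (−0.12 to 0.22). It was 0.034 over 3 pairs in the IL-4 experiment. The block in both groups with IFN-γ left 4 members lower with the combination than with IFN-γ and made 9 lower in the difference of E. coli effects. With the replicate block over all groups, Rps20 was no longer called in the IL-4 difference and 9 in place of 8 members were lower in the difference of E. coli effects. Neither block changed another call of a member. With 779421 reads in the shallowest library, changes in low members such as Rpl13a were bounded only widely.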
